A study of Rattus norvegicus with 12 samples.

Results

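Microglia, the resident immune cells of the brain, were followed through 9 genes that mark them in the rat inferior colliculus (IC), where ascending auditory pathways converge in the midbrain: Aif1, Cx3cr1, P2ry12, Tmem119, Csf1r, Itgam, Cd68, Trem2 and Tyrobp. The genes were chosen by name as microglial markers, with earlier results of these data known, so the list as a whole has no test. Each of the 9 had a single probe on the array, listed with exactly 1 gene symbol, out of 18166 genes measured this way. Tissue came from Sprague-Dawley rats 2 weeks after the right cochlea was ablated (the single-sided deaf rats, here called deaf) or after a sham operation that opened the skin behind the ear without drilling into the bulla (the control rats). The 12 arrays form 4 groups of 3: the left IC of deaf rats, the left IC of control rats, the right IC of deaf rats and the right IC of control rats. The design text gives 20 rats per operation, but neither pooling of rats on an array nor sharing of rats between left and right arrays is stated. The p-values thus rest on array-to-array spread, and part of that may be technical. The labels give no sex or age, and in part they name hippocampus and noise in place of IC and deafness. The sample titles and tissue entries, which name IC and deafness, were followed.

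Microglia survey the tissue with mobile processes, and they respond to neuronal injury and to loss of input by changing shape, dividing and taking up debris and synapses. Their survival depends on the receptor Csf1r, and their contacts with neurons run in part through Cx3cr1, which binds the neuronal protein fractalkine, and P2ry12, which senses nucleotides released from damaged or active cells. On activation, surface receptors such as Trem2, which signals through the adaptor Tyrobp, and lysosomal proteins such as Cd68 are typically altered. Ascending auditory input is mainly crossed, so the ablated ear chiefly served the left IC and the intact ear the right IC.

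Values are log2 intensities as the authors deposited them, and differences are differences of group means on that scale. Deposited values were nearly equal in distribution on the 12 arrays, with a median of 5.34 on each. The group means of the members lay above the lower quartile of the arrays (3.78), and 7 of the 9 genes had a mean over all arrays above the array median. Itgam and Cd68 lay below it, where background can shrink a difference. So did single values of Tmem119 (5.22 on left control 2 and 5.27 on right control 3) and Tyrobp (4.98 on right control 3). All 10 measured neuron markers lay above the upper quartile. Right control 3 lay farthest out on the first principal component of all genes, at 27.3, against -15.0 to 8.68 on the other 11 arrays.

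None of the 9 microglia genes passed the test for a difference between deaf and control rats on either side. In the left IC, 4 of the 9 had a higher mean and 5 a lower mean in deaf than in control rats, with differences of -0.22 to 0.27. In the right IC, 2 had a higher and 7 a lower mean in deaf rats, with differences of -0.34 to 0.07. The median difference of the 9 was -0.0061 on the left, beside -0.0051 over all genes, and -0.10 on the right, beside 0.0014 over all genes. Over all genes 48.2% had a higher and 51.8% a lower mean in the deaf left IC, and 50.5% a higher and 49.5% a lower mean in the deaf right IC. As the mean of both sides 3 of the 9 were higher and 6 lower in deaf rats (median -0.05), beside 49.4% and 50.6% of all genes. Limma, with p-values adjusted by Benjamini-Hochberg over all 18166 genes and a threshold of 0.05, called 0 of the 9 in each contrast, and it called 0% of all genes. At an unadjusted p under 0.05 it found 0 of the 9 on the left, on the right and in the mean of both sides, where 3.69%, 4.31% and 4.53% of all genes passed. For 0 of the 9 did all 6 deaf arrays lie beyond all 6 control arrays, which was so for 0.27% of all genes. In these bulk samples a change in the number of microglia and a change in RNA per cell cannot be told apart.

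The size of change that the arrays could still hold was read from the 95% intervals of the differences. A 2-fold rise and a 2-fold fall lay outside the interval of all 9 genes on both sides. For a 1.5-fold rise this held for 7 of 9 genes on the left and 9 of 9 on the right, and for a 1.5-fold fall for 7 of 9 on each side. The highest upper bound was 0.77, for Cx3cr1 on the left, and the lowest lower bound was -0.77, for Itgam on the right. The half-widths ran from 0.22 for P2ry12 to 0.52 for Cx3cr1, with a median of 0.35 over the 9 genes and 0.26 over all genes. A smaller change is thus within what 3 arrays per group leave undetermined.

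**Figure D1:**
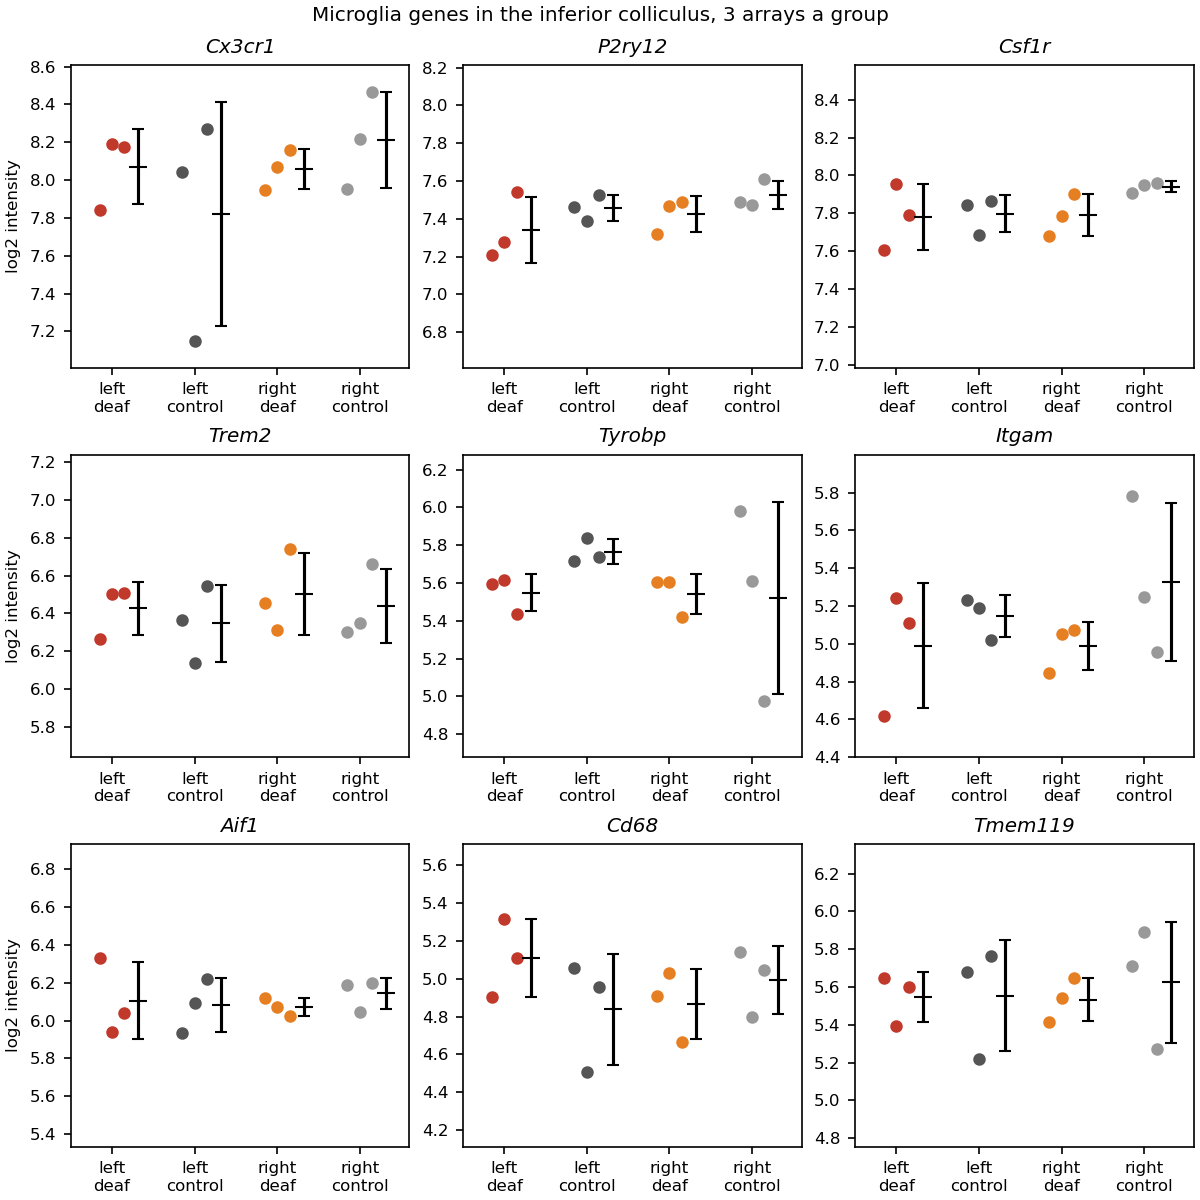
Log2 intensity of the 9 genes on each array (points), with the group mean and SD (n = 3 arrays) as a bar beside them; every panel spans the same height of log2 units around its own gene. The deaf and control arrays overlap on both sides except for Tyrobp on the left and Csf1r on the right.

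Cx3cr1 (Entrez 171056), the receptor for fractalkine, had the widest spread of the 9. Its log2 intensity was 7.84, 8.19 and 8.18 in the left IC of deaf rats, against 8.04, 7.15 and 8.27 in the left IC of control rats. The deaf arrays lay within the control range, and left control 2 held the lowest value of the 12 arrays. On the right it was 7.95, 8.07 and 8.16 in deaf rats, against 7.96, 8.21 and 8.47 in control rats. These groups overlapped too. The difference was 0.25 (SE 0.24, limma adjusted p = 1.00) on the left and -0.15 (SE 0.24, limma adjusted p = 1.00) on the right. Without left control 2 the left difference was -0.08, so its sign rested on that array, and without left control 3 it was 0.48. The right difference was -0.28 without right control 1 and -0.03 without right control 3.

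Csf1r (Entrez 307403), the receptor for the survival factors Csf1 and Il34, had nearly equal means on the left. It was at 7.60, 7.95 and 7.79 in left deaf arrays, against 7.84, 7.68 and 7.87 in left control arrays. Right-side values were 7.68, 7.79 and 7.90 in deaf rats, against 7.91, 7.95 and 7.96 in control rats. On the right all 3 deaf arrays lay below all 3 control arrays, although the highest deaf value nearly touched the lowest control value. The right difference was -0.15 (SE 0.10, 95% interval -0.37 to 0.07, limma adjusted p = 1.00), and the left one -0.02 (SE 0.10). The left value was 0.07 without left deaf 1 and -0.10 without left deaf 2, and the right value ran from -0.21 to -0.10 with 1 array left out. Arrays without overlap occurred for 7.48% of all genes on the right, and for Csf1r alone among the 9.

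P2ry12 (Entrez 64803), the nucleotide receptor that guides process movement, was at 7.21, 7.28 and 7.54 in left deaf arrays, against 7.46, 7.39 and 7.52 in left control arrays. Its right IC values were 7.32, 7.47 and 7.49 in deaf rats, against 7.49, 7.47 and 7.61 in control rats. The mean was lower in deaf rats on both sides, with overlapping arrays, by -0.11 on the left and -0.10 on the right (SE 0.10 each, limma adjusted p = 1.00 each). As the mean of both sides the difference was -0.11 (SE 0.07, 95% interval -0.26 to 0.05). Without left deaf 3 the left difference was -0.21 (unadjusted p = 0.0448, limma adjusted p = 0.928) and the mean of both sides -0.16 (unadjusted p = 0.0307). Without left deaf 1 the left difference was -0.05, and without right deaf 1 the right one was -0.05.

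Trem2 (Entrez 301227), a lipid-sensing receptor of the activated state, and Tyrobp (Entrez 361537), the adaptor through which it signals, did not share a direction on the left. Trem2 was at 6.27, 6.50 and 6.51 in left deaf arrays, against 6.37, 6.14 and 6.54 in left control arrays. In the right IC it was 6.46, 6.31 and 6.74 in deaf rats, against 6.30, 6.35 and 6.66 in control rats. The groups overlapped on both sides, and the differences were 0.08 on the left and 0.07 on the right (SE 0.14 each, limma adjusted p = 1.00 each). Without left control 2 the left difference of Trem2 was -0.03 and without left control 3 it was 0.17, and the right one was -0.05 without right deaf 3 and 0.18 without right control 3. Tyrobp was at 5.60, 5.61 and 5.44 in left deaf arrays, against 5.72, 5.84 and 5.74 in left control arrays. All 3 left deaf arrays lay below all 3 controls, which was so, in either direction, for 10.3% of all genes, and the difference of -0.22 (SE 0.19) did not pass (limma adjusted p = 1.00). In the right IC Tyrobp was at 5.61, 5.60 and 5.42 in deaf rats, against 5.98, 5.61 and 4.98 in control rats. The right control arrays held both the highest and the lowest value of the 12, and the right deaf values lay between them. The right difference was 0.02 (SE 0.19). It was -0.25 without right control 3 and 0.25 without right control 1. As the mean of both sides the difference of Tyrobp was -0.10 (SE 0.13) with all arrays. This mean was -0.23 without right control 3 (limma unadjusted p = 0.0143, adjusted p = 0.775) and 0.02 without right control 1.

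Itgam (Entrez 25021), the CD11b integrin chain, which is shared by microglia and other myeloid cells, had the lowest difference of the 9 on the right. It was at 4.62, 5.24 and 5.11 in left deaf arrays, against 5.23, 5.19 and 5.02 in left control arrays. On the right it was 4.84, 5.05 and 5.07 in deaf rats, against 5.78, 5.25 and 4.96 in control rats. The groups overlapped on both sides, and right control 1 held the highest value of the 12 arrays. The differences were -0.16 on the left and -0.34 on the right (SE 0.20 each, limma adjusted p = 1.00 each). Without right control 1 the right difference was -0.11, and without right control 3 it was -0.52 (unadjusted p = 0.0211, limma adjusted p = 0.986). As the mean of both sides the difference was -0.25 with all arrays. This mean was -0.34 without right control 3 (limma unadjusted p = 0.0244, adjusted p = 0.802) and -0.13 without right control 1. The left difference was 0.03 without left deaf 1 and -0.28 without left deaf 2.

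Aif1 (Entrez 29427), which encodes the calcium-binding protein Iba1 used to stain microglia, was at 6.33, 5.94 and 6.04 in left deaf arrays, against 5.93, 6.10 and 6.22 in left control arrays. Right-side values were 6.12, 6.07 and 6.02 in deaf rats, against 6.19, 6.05 and 6.20 in control rats. The arrays overlapped on both sides. The differences were 0.02 on the left and -0.07 on the right (SE 0.11 each), with 95% intervals of -0.22 to 0.26 and -0.31 to 0.17. Its interval bounds correspond to 0.86-fold to 1.20-fold on the left and 0.80-fold to 1.12-fold on the right. The left difference was -0.09 without left deaf 1 and 0.10 without left deaf 2, and the right one -0.12 without right control 2 and -0.05 without right control 3.

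Cd68 (Entrez 287435), a lysosomal glycoprotein of phagocytes, had the highest left difference of the 9. It was at 4.91, 5.32 and 5.11 in left deaf arrays, against 5.06, 4.50 and 4.96 in left control arrays. Its right IC values were 4.91, 5.03 and 4.67 in deaf rats, against 5.14, 4.80 and 5.05 in control rats. The groups overlapped on both sides, and left control 2 held the lowest value of the 12 arrays. The difference was 0.27 (SE 0.16, limma adjusted p = 1.00) on the left and -0.13 (SE 0.16) on the right. Without left control 2 the left difference was 0.11, and without left control 1 it was 0.38. The right difference was -0.23 without right control 2 and -0.03 without right deaf 3.

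Tmem119 (Entrez 304581), a membrane protein that separates resident microglia from blood-derived macrophages, was at 5.65, 5.40 and 5.60 in left deaf arrays, against 5.68, 5.22 and 5.76 in left control arrays. In the right IC it was 5.41, 5.54 and 5.65 in deaf rats, against 5.71, 5.89 and 5.27 in control rats. In each pair of groups the deaf arrays lay within the control range. The differences were -0.01 on the left and -0.09 on the right (SE 0.17 each, limma adjusted p = 1.00 each). The left value was -0.17 without left control 2 and 0.10 without left control 3, and the right value -0.27 without right control 3 and 0.04 without right control 2.

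**Figure D2:**
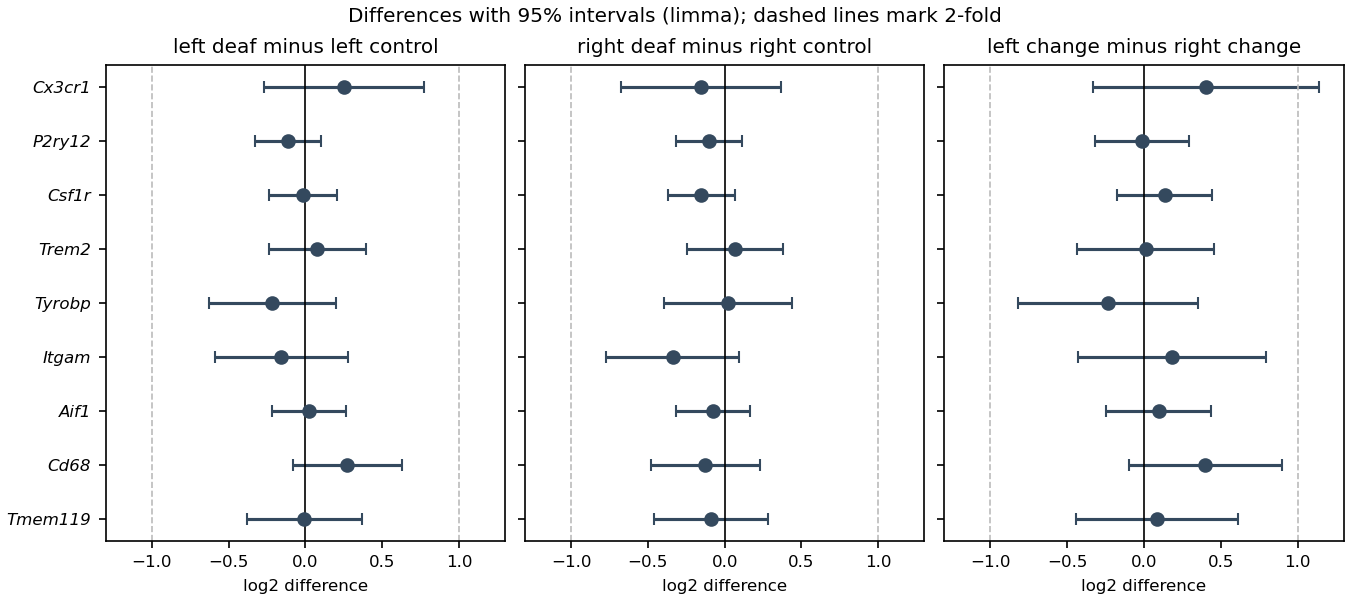
Log2 differences of the 9 genes (points) with 95% intervals from limma (lines), for deaf minus control in the left IC and in the right IC, and for the left minus the right difference; dashed lines mark a 2-fold change. Every interval includes 0, and on each side all 9 intervals end inside the dashed lines.

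Whether the response differed between the sides was tested by the interaction, the left difference minus the right difference. It was positive for 7 of the 9 genes, with a median of 0.10, and 49% of all genes had a positive value. The highest values were 0.40 for Cx3cr1 (SE 0.34) and 0.40 for Cd68 (SE 0.23), with a limma adjusted p of 1.00 for each. For these 2 genes the left and right differences had opposite signs, but neither difference nor interaction passed, and without left control 2 the interaction of Cx3cr1 was 0.07. Over all genes 51% had a negative interaction. Between the sides of deaf rats, 6 of the 9 genes were higher on the left, and 3 lower, beside 47.8% and 52.2% of all genes, with a median left minus right difference of 0.0057. Between the sides of control rats, 8 of 9 were lower and 1 higher on the left, beside 50.4% and 49.6% of all genes, with a median of -0.09. The exception was Tyrobp, at 0.24 (SE 0.19), which was at -0.03 without right control 3 and at 0.47 without right control 1 (unadjusted p = 0.0119). Its interaction of -0.24 was 0.04 and -0.47 (unadjusted p = 0.0486) in these same fits. With all arrays, limma called 0 of the 9 in these 3 contrasts, and 0 of the 9 had an unadjusted p under 0.05, which 3.34% of all genes had between the sides of deaf rats, 4.95% between the sides of control rats and 3.42% in the interaction. Arrays without overlap were found for 0 of the 9 between the sides of deaf rats (8.31% of all genes) and for 1, Csf1r, lower on the left, between the sides of control rats (9.8% of all genes). Both side contrasts called 0% of all genes, as did the interaction.

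The order of the 4 group means was loose for nearly all members. For 8 of the 9 genes, no 2 neighbouring group means in the order were farther apart than the residual SD of that gene. The exception was Csf1r, where right control, at 7.94 ± 0.03 (SD, n = 3), lay above left control, at 7.80 ± 0.10. Right control had the highest mean for 6 of the 9 genes, Cx3cr1, P2ry12, Tmem119, Csf1r, Itgam and Aif1. Left deaf was highest for Cd68, right deaf for Trem2 and left control for Tyrobp.

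Several members had their extreme value on the same array. Left control 2 held the lowest value of the 12 arrays for 4 of the 9 genes, Cx3cr1, Tmem119, Cd68 and Trem2, whereas 8.83% of all genes had their lowest value there. Left deaf 1 held the lowest value for 3, P2ry12, Csf1r and Itgam, where 11.2% of all genes had theirs. Right control 3 held the highest value for 3, Cx3cr1, P2ry12 and Csf1r, and the lowest for Tyrobp, where 15.2% of all genes were highest and 16.7% lowest. The mean of the 9 gene-centred values was -0.12, 0.04 and 0.03 on the left deaf arrays, against 0.03, -0.21 and 0.09 on the left control arrays. It was -0.09, -0.01 and 0.01 on the right deaf arrays, against 0.15, 0.06 and 0.01 on the right control arrays. The lowest array mean belonged to a control, left control 2. On the right the highest deaf array was at 0.0068 and the lowest control array at 0.010, so the groups touched without overlap.

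**Figure D3:**
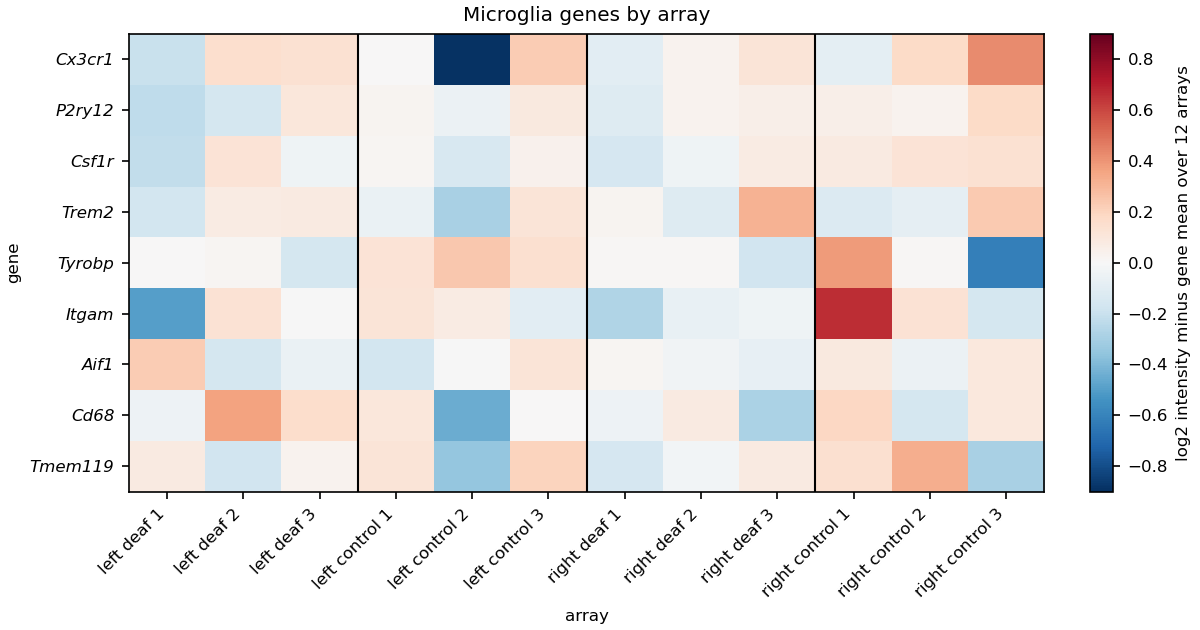
Log2 intensity of each gene on each array minus that gene's mean over the 12 arrays; red is above and blue below the gene's mean, and black lines separate the 4 groups. Left control 2 is low for Cx3cr1, Cd68, Tmem119 and Trem2, and Tyrobp and Itgam are high on right control 1.

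The 9 genes were only weakly correlated across the 12 arrays. Pearson's r over the 36 pairs of genes had a median of 0.11, beside 0.001 over all pairs of genes on the array, and 22 of the 36 were above 0. The 36 correlations share the same arrays. The highest was between Cx3cr1 and Trem2 (Pearson's r = 0.753, permutation p = 0.00262, Spearman's rho = 0.734, permutation p = 0.00908, n = 12). Adjusted over the 36 pairs the permutation p-values were 0.0943 and 0.163, and without left control 2 and right control 3 r was 0.583. Cx3cr1 and Csf1r followed (r = 0.666, permutation p = 0.0107, rho = 0.769, permutation p = 0.0045; adjusted permutation p = 0.164 and 0.162), with r = 0.709 without the same 2 arrays. The lowest was between Trem2 and its adaptor Tyrobp (r = -0.683, permutation p = 0.0137, rho = -0.524, permutation p = 0.0837; adjusted permutation p = 0.164 and 0.371), with r = -0.672 without left control 2 and right deaf 3. No pair passed the adjustment. Against the mean of the other 8 genes, Csf1r had the highest r, at 0.703 (rho 0.580). Aif1 was at -0.273 (rho -0.189), and Tyrobp at -0.226 with a rho of 0.035, given as a description over the 12 arrays.

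The promoters of the 3 genes in the 2 most similar pairs are shown because they are the members whose values ran most closely together. RefSeq sequences on the rat build GRCr8 were matched for 5 of the 9 genes, Cx3cr1, Csf1r, Trem2, Itgam and Cd68, from 250 bases before to 50 bases after the listed start. PU.1, the transcription factor that sets up the myeloid lineage, binds purine-rich sites around GAGGAA. That motif was searched on both strands (GAGGAA or TTCCTC), and each match is printed in capitals. The windows, 5′ to 3′ on the gene's strand, are chr8:128677017-128677316 (minus strand) for Cx3cr1, chr18:56834129-56834428 (plus strand) for Csf1r and chr9:20151730-20152029 (minus strand) for Trem2.
Cx3cr1: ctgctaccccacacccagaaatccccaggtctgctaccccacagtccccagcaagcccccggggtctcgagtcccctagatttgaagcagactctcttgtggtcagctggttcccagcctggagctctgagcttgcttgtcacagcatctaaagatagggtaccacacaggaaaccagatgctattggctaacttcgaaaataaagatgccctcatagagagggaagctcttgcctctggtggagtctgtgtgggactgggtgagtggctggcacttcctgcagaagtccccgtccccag
Csf1r: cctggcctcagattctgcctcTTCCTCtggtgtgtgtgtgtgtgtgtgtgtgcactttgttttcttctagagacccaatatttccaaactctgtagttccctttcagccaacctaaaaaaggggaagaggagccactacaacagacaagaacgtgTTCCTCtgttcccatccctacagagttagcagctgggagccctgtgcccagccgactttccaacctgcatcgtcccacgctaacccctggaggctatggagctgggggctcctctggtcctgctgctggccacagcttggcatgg
Trem2: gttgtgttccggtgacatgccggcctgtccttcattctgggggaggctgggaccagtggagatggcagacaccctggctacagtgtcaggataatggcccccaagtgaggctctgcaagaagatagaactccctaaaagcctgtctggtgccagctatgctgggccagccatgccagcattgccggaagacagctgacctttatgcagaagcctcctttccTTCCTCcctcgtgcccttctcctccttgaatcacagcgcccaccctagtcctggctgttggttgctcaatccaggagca
The motif occurred in 4 of the 5 windows, with 2 matches each in Csf1r, Itgam and Cd68 and 1 match in Trem2. The letters are not in the window of Cx3cr1. Of all 33469 promoter windows of the same length, 27.6% hold the motif. A match is a description of the letters, and binding was not measured here.

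Genes outside the 9 whose pattern ran closest to the mean of the members were ranked by Pearson's r over the 12 arrays. The first 4 were Slc29a4, a monoamine transporter gene (r = 0.972, 0.975 with group means removed), Prr13 (0.928), Gga1, a Golgi sorting adaptor gene (0.918), and Abhd4, a lipase gene (0.906). The tenth was at 0.894, the median over the 18156 other genes was 0.024, and the 99th percentile was 0.759. None of the 10 highest is in any list used here, the microglial identity list included.

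Other genes that mark microglia were set beside the 9. Of 26 measured genes of microglial identity (transcription factors, surface and lysosomal genes), 9 had a higher and 17 a lower mean in deaf rats on the left (median -0.03), and 14 a higher and 12 a lower mean on the right (median 0.02). Limma called 0 of the 26 over all genes on either side. Over all genes, 3.69% on the left and 4.31% on the right had an unadjusted p under 0.05. These shares also stand beside the counts of the lists below. At an unadjusted p under 0.05, 1 of the 26 was lower on the left, Siglec5, a sialic acid receptor gene (-0.27, SE 0.10). On the right 1 was higher, Hpgds, a prostaglandin D synthase gene (0.20, SE 0.09), and 2 were lower, Fcgr1a, an antibody receptor gene (-0.33, SE 0.15), and Selplg, a selectin ligand gene (-0.21, SE 0.10). Fcgr1a was at 5.28, 4.93 and 5.03 in right deaf arrays, against 5.53, 5.37 and 5.32 in right control arrays. These right arrays did not overlap, which was so, in either direction, for 7.48% of all genes. On the left the difference of Fcgr1a was -0.02 (SE 0.15). Ltc4s, a leukotriene synthase gene, had a higher mean in deaf rats on both sides (0.17 and 0.14, SE 0.10 each) and Golm1, a Golgi membrane protein gene, a lower mean on the left (-0.18, SE 0.09).

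Among ligands and partners of the microglial receptors, 8 of 13 measured genes had a higher mean in deaf rats on the left (median 0.06) and 7 of 13 on the right (median 0.01). Limma called 0 of the 13, and 1 on each side had an unadjusted p under 0.05. Il34 (Entrez 498951), a neuronal ligand of Csf1r, was at 7.04, 7.02 and 6.84 in right deaf arrays, against 6.83, 6.75 and 6.56 in right control arrays. The right deaf arrays lay just above the controls, and right arrays without overlap, in either direction, occurred for 7.48% of all genes. On the left it was at 6.83, 6.98 and 7.04 in deaf rats, against 6.92, 6.74 and 6.77 in control rats, with overlap. The differences were 0.25 on the right and 0.14 on the left (SE 0.10 each, unadjusted p = 0.0259 and 0.190, limma adjusted p = 1.00 each). When arrays were left out singly, the right value stayed between 0.18 and 0.32. Its sign could not change there, because the right groups did not overlap, so this range gives no further support. The fractalkine gene Cx3cl1 differed by -0.02 on the left and by 0.10 on the right (SE 0.08 each). Tgfb1, a factor that maintains the microglial state, differed by 0.31 in the left IC and by 0.13 in the right IC (SE 0.23 each). Its lowest value of the 12 arrays, 6.01, was on left control 2, the array that was also lowest for Cx3cr1 and Trem2. Tgfb2 differed by 0.24 on the left (SE 0.09, unadjusted p = 0.0255) and by -0.04 on the right, and C3, a complement gene, by -0.01 and -0.13 (SE 0.12 each).

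In the list of Trem2 and Tyrobp signalling, 10 of 12 measured genes had a higher mean in the deaf left IC (median 0.07). In the deaf right IC 5 of 12 did (median -0.02), beside 48.2% of all genes on the left and 50.5% on the right. Limma called 0 of the 12 on either side, with 1 in the left IC and 0 in the right IC at an unadjusted p under 0.05, and 8 of the 12 lay below the array median in level. Cblb, a ubiquitin ligase gene that restrains immune receptor signals, was at 7.14, 7.21 and 7.17 in left deaf arrays, against 7.01, 6.96 and 7.03 in left control arrays (0.18, SE 0.07). On the right it was 7.09, 7.10 and 7.01 in deaf rats, against 7.13, 7.16 and 7.22 in control rats (-0.10, SE 0.07). The arrays did not overlap on either side, with opposite directions. Arrays without overlap, in either direction, occurred for 10.3% of all genes on the left and 7.48% on the right. Neither difference of Cblb passed over all genes (limma adjusted p = 1.00 each). Btk, a kinase gene, was at -0.26 and -0.17 (SE 0.15 each), Hcst, a second adaptor gene related to Tyrobp in function, at 0.37 and 0.10 (SE 0.21 each), and Trem1 at 0.08 and 0.17 (SE 0.14 each), left and right in that order.

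Genes that microglia raise in degenerating tissue were spread around 0. Of 20 measured disease-associated microglia genes, 13 had a higher mean in deaf rats on the left (median 0.03) and 8 on the right (median -0.03). By level, 13 of these 20 lay above the upper quartile of the arrays, and bulk tissue does not show which cells carried them. Limma called 0 of the 20, and 0 had an unadjusted p under 0.05 on either side. Those with the smallest p were Timp2, a protease inhibitor gene (0.15, SE 0.07), Itgax (0.16, SE 0.11) and the glucan receptor gene Clec7a (0.26, SE 0.19) on the left, where the right values were -0.01, -0.14 and -0.19. Ch25h, an oxysterol enzyme gene, was at 0.25 on both sides (SE 0.19 each). Of 21 inflammatory mediators, 14 had a higher mean in deaf rats on the left (median 0.06) and 12 on the right (median 0.03), again with 0 called and 0 at an unadjusted p under 0.05 on either side, and 15 of the 21 lay below the array median. Nfkbia, the NF-kB inhibitor gene that NF-kB itself induces, differed by 0.22 in the left IC and by 0.15 in the right IC (SE 0.11 each), and as the mean of both sides by 0.18 (SE 0.07, unadjusted p = 0.0302, limma adjusted p = 0.998). Il18 was at -0.35 on the left (SE 0.23), Cxcl10 at -0.17 on the left (SE 0.11), and Myd88 and the chemokine gene Ccl2 at 0.16 (SE 0.09) and 0.20 (SE 0.15) on the right.

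MHC class II genes, which antigen-presenting myeloid cells use, had the highest median difference among the microglial and immune lists. On the left 7 of 8 had a higher mean in deaf rats (median 0.15) and on the right 5 of 8 (median 0.07). Of the 8, limma called 0, and only the left had 1 at an unadjusted p under 0.05. RT1-Da (Entrez 294269) was at 5.68, 6.34 and 5.88 in left deaf arrays, against 5.69, 5.32 and 5.42 in left control arrays. The arrays overlapped, and left deaf 2 was the highest of the 12. The difference was 0.49 (SE 0.18, unadjusted p = 0.0185, limma adjusted p = 1.00) on the left and 0.17 (SE 0.18) on the right. The invariant chain gene Cd74 differed by 0.15 in the left IC and by 0.37 in the right IC (SE 0.27 each). RT1-DMa and RT1-DMb, peptide loading genes, were at 0.14 (SE 0.08) and 0.20 (SE 0.13) on the left. The mean of the 8 gene-centred values was -0.07, 0.31 and 0.02 on the left deaf arrays, against -0.04, 0.01 and -0.18 on the left control arrays. On left deaf 2 the mean of the 10 meningeal fibroblast markers was also highest, at 0.73, against -0.15 to -0.06 on the other left deaf arrays and -0.41 to 0.13 on the left control arrays. Without left deaf 2 the left median of the MHC class II genes was 0.08, with 5 of 8 higher, and without right deaf 2 the right median was 0.02. The part of the meningeal markers in this difference was not tested.

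Cell division genes gave 3 of 11 with a higher mean in deaf rats on the left (median -0.07) and 6 of 11 on the right (median 0.01), with 0 called by limma (at an unadjusted p under 0.05, 1 in the left IC and 0 in the right IC), and 10 of the 11 lay below the array median. Mcm2, a replication licensing gene, differed by 0.24 on the left (SE 0.09, unadjusted p = 0.0285) and by 0.01 on the right. Aurkb and Ccnb1, mitotic genes, were at 0.42 (SE 0.24) and 0.30 (SE 0.15) on the right, against -0.01 and -0.06 on the left, and Bub1, also mitotic, was at -0.25 on the right (SE 0.13).

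Markers of other immune cells that could carry some of the same genes were dim. Of the measured markers, 10 of 11 for border macrophages, 10 of 11 for blood myeloid cells and 10 of 10 for lymphocytes had means below the array median. The level of each list, as the mean of gene-centred values, overlapped between deaf and control arrays on both sides for all 3 lists. The lymphocyte markers came closest to separate, on the left. They ran there from -0.10 to 0.03 in deaf rats, against 0.02 to 0.07 in control rats. Of the 10, 8 had a lower mean in deaf rats on the left (median -0.06) and 5 on the right (median 0.0020). Limma called 0 of them, and 1 was higher on the right at an unadjusted p under 0.05, Nkg7 (0.22). Of the 11 blood myeloid markers, 8 had a higher mean on the left (median 0.03) and 5 on the right (median -0.0035). None of these 11 had an unadjusted p under 0.05 on either side. Of the 11 border macrophage markers, 7 had a higher mean in deaf rats on the left (median 0.03) and 5 on the right (median -0.01), with 0 called by limma. At an unadjusted p under 0.05, 1 was higher and 1 lower on the left, Siglec1 and Lyve1, and 1 was higher on the right, Siglec1. Siglec1 (Entrez 311426), a sialic acid receptor gene of macrophages that interferons induce, was at 4.79, 4.90 and 4.70 in left deaf arrays, against 4.41, 4.64 and 4.29 in left control arrays. Right-side values were 5.03, 4.92 and 4.97 in deaf rats, against 4.71, 4.69 and 4.73 in control rats. The deaf arrays lay above the control arrays of the same side in both comparisons, by 0.35 on the left and 0.26 on the right (SE 0.09 each, unadjusted p = 0.0033 and 0.0175). Neither difference passed over all genes (limma adjusted p = 1.00 each). Arrays without overlap, in either direction, occurred for 10.3% of all genes on the left and 7.48% on the right. With single arrays left out the left value stayed between 0.27 and 0.44 and the right value between 0.23 and 0.29. Groups without overlap keep their sign when 1 array is left out, and Siglec1 was named for its small p. These ranges thus give no further support. Among other border macrophage markers, Mrc1 was at 0.08 and -0.08 (SE 0.28 each), Lyve1, a receptor gene of perivascular macrophages, at -0.31 (unadjusted p = 0.0203) and 0.07 (SE 0.12 each) and Pf4 at 0.00 and -0.24 (SE 0.13 each), left and right in that order.

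Among markers of non-immune cell types in the right IC, cerebellar, oligodendrocyte and astrocyte markers mostly had lower means in deaf rats, and neuron markers mostly higher ones. Of 10 neuron markers 8 had a higher mean (median 0.04), and of 8 endothelial markers 5 had a lower mean (median -0.10). Of 10 cerebellar granule markers, 10 had a lower mean there (median -0.44), and their mean ran from -0.28 to -0.17 on the right deaf arrays, against 0.12 to 0.68 on the right control arrays. Of 9 oligodendrocyte markers, 9 had a lower mean there (median -0.13), and their mean ran from -0.09 to 0.00 on the right deaf arrays, against 0.03 to 0.17 on the right control arrays, and from -0.12 to -0.04 on the left deaf arrays, against 0.00 to 0.03 on the left control arrays. Of 9 astrocyte markers 8 had a lower mean on the right (median -0.05). Limma called 0 of these genes over all genes, and at an unadjusted p under 0.05 it found 6 cerebellar, 2 oligodendrocyte and 0 astrocyte markers on the right. Of the 9 microglia genes 7 had a lower mean on the right, where right control had the highest mean for 6 of them. Of the 10 meningeal fibroblast markers, 4 had a higher and 6 a lower mean in deaf rats on the right (median -0.03). On the left all 10 had a higher mean (median 0.34), with 0 at an unadjusted p under 0.05. Their mean was 0.73 on left deaf 2, against -0.15 to -0.06 on the other left deaf arrays and -0.41 to 0.13 on the left control arrays. In the left IC, lower means were found for 6 of 10 neuron markers (median -0.05) and 6 of 8 endothelial markers (median -0.13). There, 7 of 9 oligodendrocyte markers (median -0.06) and 7 of 9 astrocyte markers (median -0.02) also had a lower mean. For cerebellar markers it was 6 of 10 (median -0.03). At an unadjusted p under 0.05 limma found 2 oligodendrocyte, 0 astrocyte and 0 cerebellar markers on the left. For 2 of the 9 oligodendrocyte markers all 6 deaf arrays lay below all 6 control arrays, beside 0.27% of all genes in either direction. Of the 3 measured red cell markers, 3 had a lower mean in deaf rats on the left (median -0.18) and 2 on the right (median -0.23). The haemoglobin gene Hba-a1 differed by -0.38 (SE 0.16) on the left, and Hbb-b1 by -0.48 (SE 0.16) on the right. The mean of the red cell markers ran from -0.10 to 0.08 on the right deaf arrays, against 0.12 to 0.23 on the right control arrays, without overlap, and from -0.31 to 0.00 on the left deaf arrays, against -0.02 to 0.08 on the left control arrays. The part of these cell types in the microglial values was not tested.

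**Figure D4:**
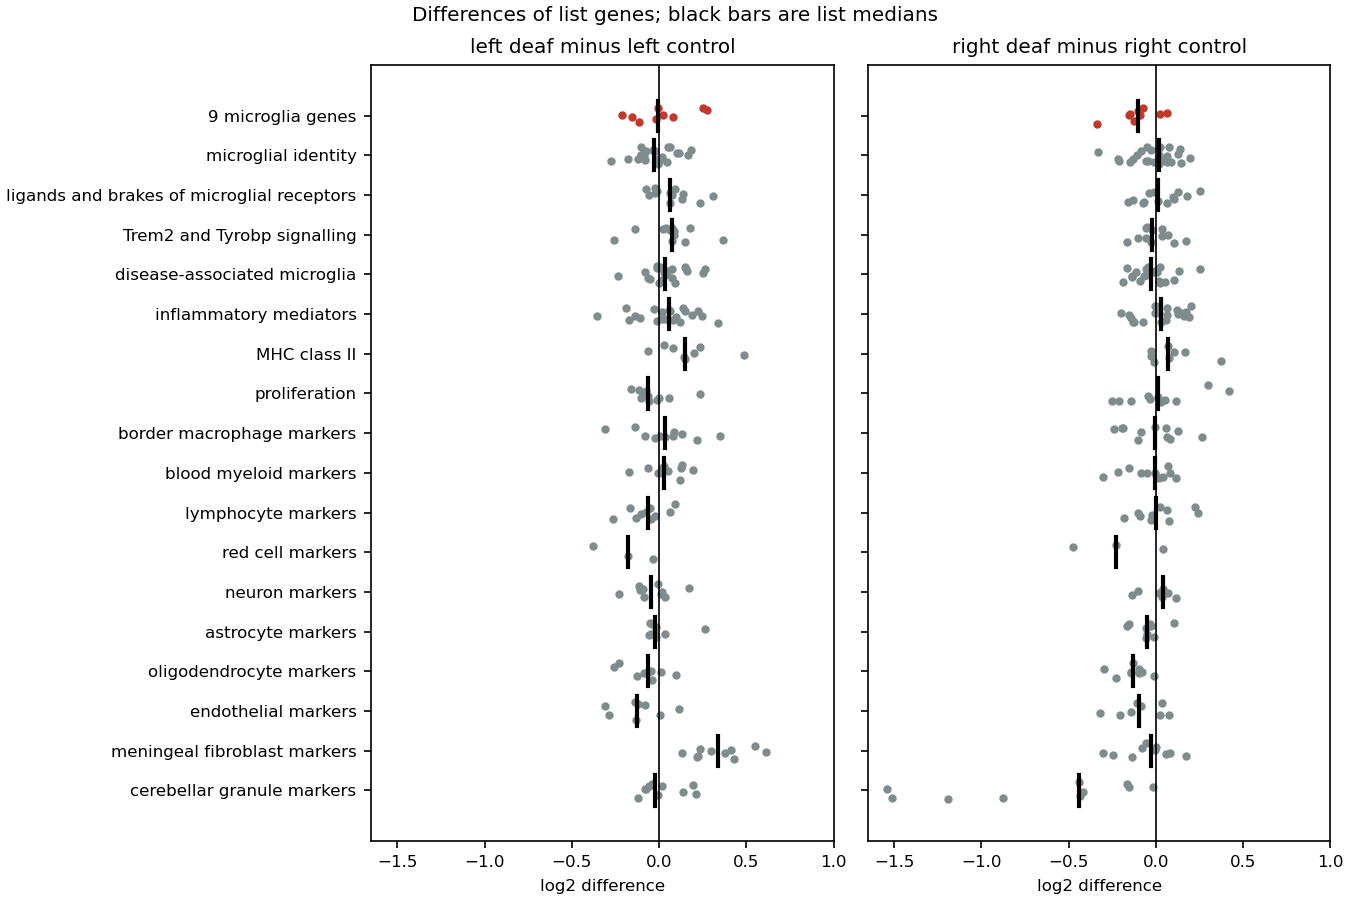
Log2 difference of each measured gene (points), deaf minus control, in the left and right IC, for the 9 microglia genes (red) and the comparison lists (grey), with list medians as black bars. The microglial and immune lists have medians between -0.10 and 0.15. The meningeal list on the left, the cerebellar list on the right and the red cell list on both sides lie farther from 0. The oligodendrocyte list on the right and the endothelial list on the left, at -0.13 each, also lie below this range.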

How the data were processed

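Total IC RNA was extracted with Trizol and made into cDNA that carried a biotin label, with an Affymetrix reagent and 1 colour per array, per the labels' protocols. The values are log2 intensities, deposited by the authors after a normalization that made the 12 arrays nearly equal in distribution. No source used here gives the software, the array's genome build or detection calls, so differences of dim genes are as measured. Precision is limited by how few arrays there are.

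Of 29489 probes, 18511 had 1 gene symbol, 575 several and 10403 none. The brightest probe per gene was kept, which left 18166 genes. All 12 arrays were fitted as 4 group means with limma 3.58.1 in R 4.3.3, with 6 contrasts, two-sided tests and Benjamini-Hochberg adjustment over all genes at 0.05. A run on simulated data tested the fit. An exact permutation test of 1 gene, 3 arrays against 3, cannot go below 0.1. Correlations used 100000 permutations. The members and the 17 comparison lists (201 of 219 distinct genes measured) were chosen with earlier results of these data known. Genes to name were drawn from the 9 members and the 2 or 3 genes of smallest unadjusted p per contrast in each list. Those at the highest level in cell type lists and the 10 genes most like the members' mean were added. Not all genes that met this rule are named in the text. The alternatives covered normalization, centring, a filter on dim genes, the choice of probe, the variance model, array weights, the groups fitted, replicate blocks, the threshold and each array left out. Leaving out arrays for Siglec1, Il34 and the MHC class II median was added after seeing the data.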

Additional observations from a re-analysis of the deposited data

Results flagged for a closer look

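Cblb, the ubiquitin ligase gene in the list of Trem2 and Tyrobp signalling, stood out for arrays without overlap, in opposite directions left and right. Its deaf arrays lay above the controls on the left and below them on the right. Arrays without overlap, in either direction, occurred for 10.3% of all genes on the left and 7.48% on the right. The difference between the sides was 0.28 (SE 0.10, unadjusted p = 0.0149), and it did not pass over all genes (limma adjusted p = 1.00). In this contrast 3.42% of all genes had an unadjusted p under 0.05. None of the 9 microglia genes stood out in this way.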

How the results depend on the processing

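In the settings tried (10 for the contrasts between 2 groups, 9 for the other contrasts, and each single array left out), limma called 0 of the 9 microglia genes. The median difference of the 9 moved by less than the spread between arrays in each setting. With 1 array left out it ran from -0.08 (without left control 2) to 0.09 (without left control 3) on the left, from -0.13 to -0.05 on the right, from -0.11 to 0.0041 as the mean of both sides, from -0.05 to 0.04 for left minus right in deaf rats, from -0.18 to -0.03 in control rats and from 0.06 to 0.16 for the interaction. Over all genes the counts of 0 changed to 1 for the left contrast (Vgf) with genes above the median level and with a variance trend and robust estimation together, to 1 (Vgf) and 2 (Vgf and Or52a5b) for left minus right in deaf rats in the same 2 settings, and to 1 for the interaction at an adjusted p under 0.10 (Mirlet7f2). With 1 array left out, the counts ran from 0 to 1 on the left (Vgf, without left deaf 3) and from 0 to 1 for the mean of both sides (Clec2d2, without right control 3). A fixed replicate block, by the numbers in the labels, gave 1 gene each for left minus right in control rats and the interaction (RGD1565183 in both) and 0 elsewhere, and a random replicate block gave 0. Left and right arrays of the same operation are the pairs that could share rats. Their deviations correlated at -0.06 to 0.15 for same-numbered arrays and at -0.16 to 0.20 for other pairs. Pairing of arrays by number was thus not shown, and whether left and right arrays share rats is unknown. These genes were named after their values were seen, and the cause of each change was not tested. Tyrobp was the only member whose value moved by more than its residual SD, without right control 3 (right -0.25, left minus right in control rats -0.03, interaction 0.04). Counting only fits that left out an array of the contrast, the sign of a member's uncalled difference changed in 11 of 54 values on the left, 6 of 54 on the right, 8 of 108 for the mean of both sides, 17 of 54 and 8 of 54 for left minus right in deaf and in control rats, and 18 of 108 for the interaction. Of all 648 member values with 1 array left out, 8 had an unadjusted p under 0.05 and 0 passed over all genes.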
